A study of Mus musculus with 8 samples.

Results

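The RNAs of the mitochondrial genome were described in cells sorted from mouse lungs bearing Eml4-Alk tumors. Every row of the raw count table that RefSeq places on the mitochondrial chromosome was taken, which gave 15 genes of 27179 rows. These were both ribosomal RNA genes and all 13 protein-coding genes. The 22 mitochondrial tRNA genes were not analysed here. The rule used position alone and no measured value.

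All 8 libraries came from lungs of female mice labelled as strain C57BL/6 (C57BL/6J in the study's methods) and as genotype Eml4-Alk translocation. This rearrangement of Eml4 and Alk had been induced in the lung by an adenovirus that delivers Cas9 with guides against both genes. The mice were 18 to 22 weeks old and 11 to 12 weeks past induction. Each received 4.5 nmol of QZ1-(PEG2K) in the tail vein and lungs were taken 2 h later. QZ1 is a quenched peptide that becomes fluorescent and stays on cells after protease cleavage. Live CD45- and CD11b- cells were sorted by this signal into QZ1-hi cells (labelled QZ+, n = 4) and QZ1-lo cells (labelled QZ-, n = 4), with at least 100000 cells per population. Both populations carried the same genotype, virus and probe, and no healthy lung or lung without probe is part of the comparison. The methods describe suspensions made from dissected tumors and the tissue around them, and the labels do not separate tumor cells from other cells. Replicate numbers below only name a library, and the labels do not say which libraries came from 1 mouse.

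The mitochondrial genome is a small circle that encodes the 2 ribosomal RNAs of the mitochondrial ribosome, the tRNAs it needs and a set of membrane subunits of the respiratory chain and ATP synthase. Both strands are transcribed as long precursors, and most messages are released where the tRNAs that lie between them are cut out. All other parts of the respiratory chain, of the mitochondrial ribosome and of the machinery that copies, transcribes and processes this genome come from nuclear genes.

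The rRNA genes lie next to each other, mt-Rnr1 (12S rRNA) at positions 70 to 1024 of the mitochondrial chromosome of build GRCm38 and mt-Rnr2 (16S rRNA) at 1094 to 2675. The messages follow, from mt-Nd1 at 2751 to 3707 to mt-Cytb at 14145 to 15288. Of the 13 messages, 12 are read from 1 strand and mt-Nd6 (13552 to 14070) is read from the opposite strand. In 3 places neighbouring genes share several bases, and a read from these bases belongs to both. The sequences from GENCODE M21 transcripts (GRCm38) show how little separates these genes. In the first, the capitals mark the start codon of mt-Atp6 and the stop codon of mt-Atp8. In the second, they mark the 7 bases that end mt-Nd4l and begin mt-Nd4. In the third, they mark the 14 bases that mt-Nd5 shares with the opposite strand of mt-Nd6.
mt-Atp8/mt-Atp6, chrM:7927-7969: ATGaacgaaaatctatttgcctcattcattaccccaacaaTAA
mt-Nd4l/mt-Nd4, chrM:10144-10173: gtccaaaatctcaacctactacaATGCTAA
mt-Nd5/mt-Nd6, chrM:13536-13565: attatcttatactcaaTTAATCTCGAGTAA

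Messages also differ in how they end. The last 30 bases of 5 messages are shown because some carry a full stop codon in the genome and others only its first base, which the poly(A) tail completes. Capitals mark the encoded stop codon or the single T.
mt-Co1, chrM:6843-6872: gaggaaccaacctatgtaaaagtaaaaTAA
mt-Co2, chrM:7667-7696: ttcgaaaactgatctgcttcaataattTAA
mt-Co3, chrM:9361-9390: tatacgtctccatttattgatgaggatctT
mt-Nd4, chrM:11515-11544: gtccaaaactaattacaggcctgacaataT
mt-Cytb, chrM:15259-15288: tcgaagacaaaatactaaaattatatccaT

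Libraries held 18380918 to 26847938 counts. The scaling factors of the trimmed mean of M values (TMM), which set each library's size from the bulk of its genes, ran from 0.660 to 1.35. Endothelial markers separated the populations: all 10 were higher in QZ1-hi, with a summed level of 1046 to 2484 CPM (counts scaled by library size) in QZ1-hi against 78.7 to 320 in QZ1-lo. Of 11 epithelial markers 9 were lower and 1 was higher, Sftpc of alveolar type 2 cells (log2 fold change 0.78, edgeR adjusted p = 0.0231), which was named after its values were seen. All 7 ciliated cell markers were lower, while 7 of 10 pericyte and fibroblast markers were higher. Leukocyte RNA was present although the sort excluded CD45+ and CD11b+ cells. Ptprc, which encodes CD45, was at 130 ± 64.1 CPM in QZ1-hi and 125 ± 30.0 CPM in QZ1-lo (SD, n = 4). Of 10 leukocyte markers 0 were called by edgeR or DESeq2 and 0 had an unadjusted p under 0.05, with a summed level of 3049.5 to 6486 CPM and 2179 to 4309 CPM. Over all genes tested, edgeR called 9.88% higher and 8.21% lower, and 28.9% had an unadjusted p under 0.05. Cell types differ in their mitochondrial content, and fewer cells of a type and less RNA per cell cannot be told apart in sorted bulk libraries. The part of this makeup in the mitochondrial values was not tested.

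Mitochondrial RNA made up a large part of the counts of every library. It took 43.7%, 62.8%, 52.0% and 65.6% of all counts in QZ1-hi replicates 1 to 4, and 34.0%, 53.2%, 37.0% and 43.3% in QZ1-lo replicates 1 to 4. QZ1-hi replicates 2 and 4 exceeded every QZ1-lo library. QZ1-lo replicate 2, at 53.2%, exceeded QZ1-hi replicates 1 and 3, so the groups overlapped. Nearly all of this was ribosomal. The 2 rRNAs were 88.8% to 90.3% of the mitochondrial counts in the 8 libraries. All counts here means counts assigned to rows of the table. Rn45s, Rn18s and Rn28s1, names of large cytosolic rRNAs, matched no row by symbol. The cytosolic rRNA rows that were matched took 0.00328% to 0.0205% of counts. The shares therefore do not give the mitochondrial part of all RNA in the cells. Whether rRNA was removed before sequencing is not given in the sources used here.

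The mitochondrial rRNAs, which form the core of the mitochondrial ribosome, took 39.5%, 56.0%, 46.4% and 58.4% of all counts in the QZ1-hi libraries. In the QZ1-lo libraries they took 30.2%, 47.3%, 33.2% and 38.4%. QZ1-hi replicates 2 and 4 lay above all QZ1-lo libraries and the other QZ1-hi libraries lay below QZ1-lo replicate 2. The means were 50.1% ± 8.76 and 37.3% ± 7.50 (SD, n = 4), and the difference of 12.8 percentage points did not pass a two-sided exact permutation test (p = 0.0857; adjusted p = 0.357 over 5 measures by Benjamini-Hochberg). With 4 against 4 libraries this test can give no p below 0.0286.

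The 13 messages together took 4.24%, 6.82%, 5.60% and 7.20% of all counts in QZ1-hi and 3.74%, 5.88%, 3.79% and 4.86% in QZ1-lo. As with the rRNAs, QZ1-lo replicate 2 lay above QZ1-hi replicates 1 and 3, and here QZ1-lo replicate 4 also lay above QZ1-hi replicate 1. The means of 5.96% ± 1.34 and 4.57% ± 1.02 (SD, n = 4) did not pass the exact permutation test (p = 0.143; adjusted p = 0.357). Once the mitochondrial rRNA was set aside, the messages were 7.0%, 15.5%, 10.5% and 17.3% of the remaining counts in QZ1-hi. In QZ1-lo they were 5.36%, 11.2%, 5.68% and 7.90%. Counting error was small beside this spread, since the widest 95% Wilson interval of any such share of all counts was 0.0457 percentage points across. These intervals cover counting error only.

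**Figure D1:**
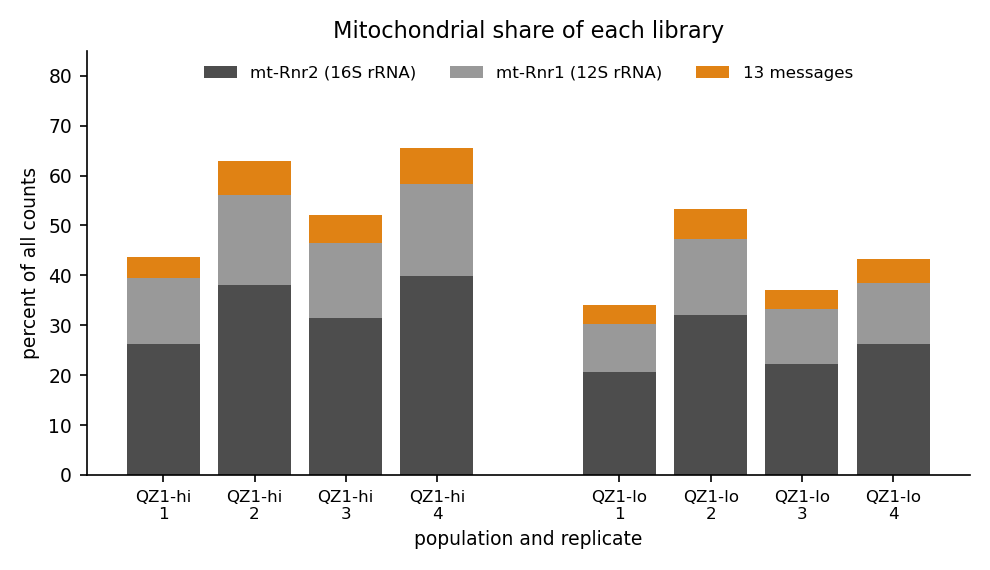
Stacked bars give the percent of all counts in each library (y axis, from 0) taken by mt-Rnr2, mt-Rnr1 and the 13 messages together; each bar is 1 library, named by population and replicate. The total runs from 34.0% to 65.6%, the 2 rRNAs fill most of every bar, and QZ1-lo replicate 2 at 53.2% stands above QZ1-hi replicates 1 and 3.

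Within the mitochondrial RNA, the balance of the classes was compared next, which does not depend on scaling. Each message count was matched by 9.32, 8.22, 8.29 and 8.11 rRNA counts in QZ1-hi replicates 1 to 4 and by 8.08, 8.05, 8.76 and 7.91 in QZ1-lo. QZ1-hi replicate 1 was the highest and the rest overlapped. On the log2 scale the ratio was 3.08 ± 0.09 in QZ1-hi and 3.03 ± 0.07 in QZ1-lo (SD, n = 4; two-sided exact permutation test p = 0.457). The difference was smaller than the spread between replicates.

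The 2 rRNAs are cut from the same stretch of precursor. mt-Rnr2 had 1.97, 2.12, 2.11 and 2.16 counts per mt-Rnr1 count in QZ1-hi and 2.13, 2.11, 2.03 and 2.13 in QZ1-lo. Divided by gene length, the ratio of levels was 1.19 to 1.30, above 1 in all 8 libraries. The log2 ratio of counts was 1.06 ± 0.06 against 1.07 ± 0.04 (SD, n = 4; exact permutation p = 0.771), and its small difference changed sign without QZ1-hi replicate 1.

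The message of the opposite strand, mt-Nd6, was also compared with the 12 others. Its counts were 3.12%, 3.57%, 3.47% and 3.96% of those of the other messages in QZ1-hi, and 3.58%, 3.72%, 3.65% and 3.84% in QZ1-lo. QZ1-hi held both the lowest and the highest library. The log2 ratio was -4.83 ± 0.14 in QZ1-hi and -4.76 ± 0.04 in QZ1-lo (SD, n = 4; exact permutation p = 0.4). The library kit keeps strand, but whether the counting used it is not given in the sources used here. Without strand, precursor RNA from the other side of mt-Nd6 and reads from its overlap with mt-Nd5 cannot be told apart from mt-Nd6.

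Levels per length put the mitochondrial RNAs in a steep order. They are given in TMM-scaled CPM per kb, as the mean of QZ1-hi and then of QZ1-lo. mt-Rnr2 was at 265674 and 139574, and mt-Rnr1 at 208885 and 109948. Below them, mt-Co1, the catalytic subunit of cytochrome c oxidase (complex IV), was the highest message at 11291 and 6136. Next came mt-Cytb, the cytochrome b of complex III, at 10852 and 5902. mt-Nd3, a small subunit of complex I, was the lowest at 1253 and 657. In each library mt-Rnr1 was 17.4 to 19.7 times the level of mt-Co1 per length. As described below, 7 messages, mt-Nd3 and mt-Co1 among them, share over 50% of their stretches with nuclear copies. How reads that match a copy were counted is not given in the sources used here. The order of these messages may therefore not be that of their RNA levels.

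Some steps in this order held in every library and others did not. mt-Co1 exceeded mt-Cytb in 8 of 8 libraries, but only by 1.01 to 1.21 times. mt-Cytb exceeded mt-Atp6, the proton channel subunit of ATP synthase (complex V), in 8 of 8, by 1.10 to 1.36 times. mt-Nd5 and mt-Nd1 could not be ordered, since mt-Nd5 was the higher in 4 of 8 libraries. mt-Co2, mt-Atp8 and mt-Nd4 lay close together too: mt-Co2 exceeded mt-Atp8 in 2 of 8 libraries and mt-Atp8 exceeded mt-Nd4 in 3 of 8. mt-Nd4l exceeded mt-Nd3 in 8 of 8, by 1.72 to 2.44 times.

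Neighbours that share an RNA differed in level as well. mt-Atp8 and mt-Atp6 are translated from 1 message, as are mt-Nd4l and mt-Nd4. The level of mt-Atp8 per length was 0.439 to 0.565 of that of mt-Atp6, and the level of mt-Nd4l was 0.577 to 0.664 of that of mt-Nd4. The QZ1-hi and QZ1-lo ranges overlapped for both pairs. How reads in the shared bases were assigned is not given in the sources used here. The overlap holds 43 of the 204 bases of mt-Atp8 and 7 of the 297 bases of mt-Nd4l. mt-Atp6, mt-Nd4l and mt-Nd4 are also among the messages with nuclear copies, so these ratios carry the limit given above.

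**Figure D2:**
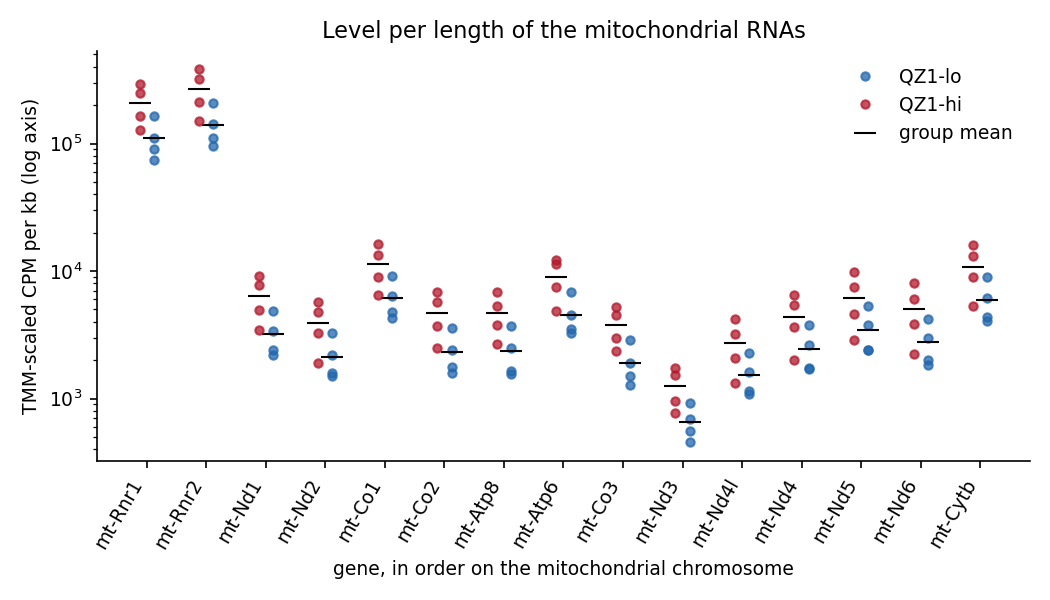
Level of each mitochondrial RNA in TMM-scaled CPM per kb (log axis), in gene order; points are single libraries, red for QZ1-hi and blue for QZ1-lo, and black dashes are group means. The 2 rRNAs stand above all messages, and for every gene the red and blue points overlap although the red mean is higher.

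To ask which of these RNAs differed between the populations relative to all other genes, edgeR's quasi-likelihood test was run over 15583 genes with Benjamini-Hochberg adjustment. All 15 mitochondrial genes passed the filter on low counts, the lowest count of any of them being 5292. All 15 had a higher mean in QZ1-hi, with log2 fold changes from 0.83 to 1.00 and a median of 0.93, beside a median of 0.02 over all genes. Standard errors were 0.28 to 0.37. Only mt-Co3, mt-Nd3 and mt-Atp6 rose at an adjusted p under 0.05, which is 3 of 15 genes, and 0 fell by edgeR, by DESeq2 or by an unadjusted p. Over all genes tested, 9.88% were called higher and 8.21% lower. For no mitochondrial gene did the 4 QZ1-hi libraries clear the 4 QZ1-lo libraries, while 22.6% of all genes had groups without overlap. The unadjusted p was under 0.05 for all 15, and for 28.9% of all genes.

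The calls rested on few libraries. Without QZ1-hi replicate 1 all 15 genes were called, with log2 fold changes from 1.05 to 1.21, and without QZ1-lo replicate 2 there were 11. Of all genes tested, 8.46% and 8.39% were called higher in these fits. Without QZ1-hi replicate 2 or 4, or without QZ1-lo replicate 1, 3 or 4, edgeR made 0 calls. In these fits 8 to 12 of the 15 genes had an unadjusted p under 0.05. Over all genes, the same fits called 1252 to 1506 higher, of 15787 to 15982 tested. Without QZ1-hi replicate 3 there were 2 calls, with 1136 of 16011 genes called higher. With all libraries, the DESeq2 Wald test called 12 of the 15, and 11.6% of all genes, higher. The size of the change also depended on scaling. With library size as the only scaling, the median of all genes was -0.44, and edgeR called 883 of 15583 genes higher. The mitochondrial genes were at 0.30 to 0.50 in that fit, with 0 calls by edgeR and 0 at an unadjusted p under 0.05. Their own median was then 0.87 above that of all genes, and 0.90 above it under TMM.

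**Figure D3:**
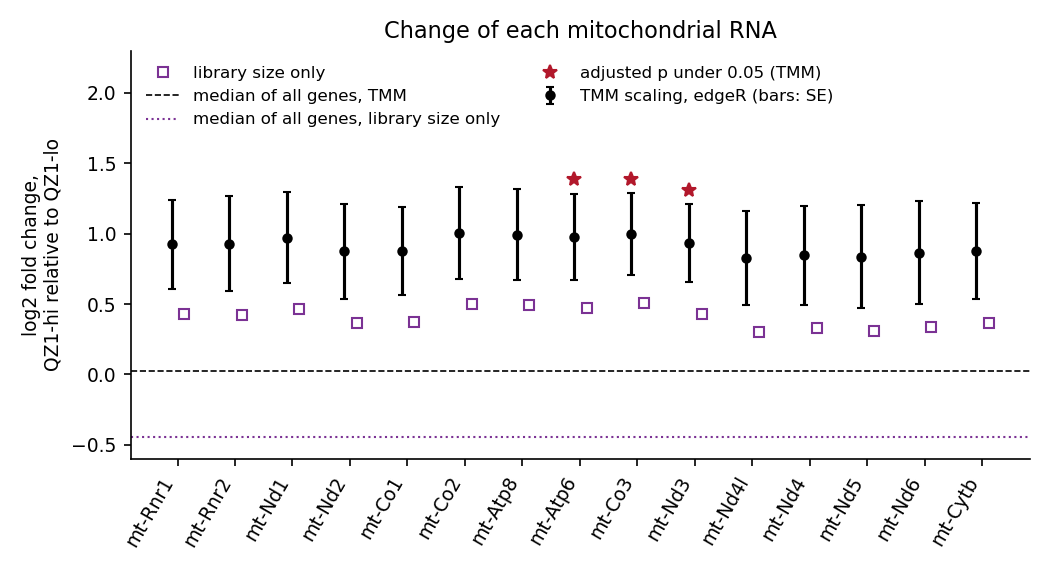
The y axis is the log2 fold change of QZ1-hi relative to QZ1-lo for each mitochondrial gene. Black points with SE bars are the edgeR fit with TMM scaling and open squares use library size only; lines are the medians of all genes. The 15 genes lie between 0.83 and 1.00 under TMM, stars mark the 3 with an adjusted p under 0.05, and both scalings leave the genes about equally far above their own median of all genes.

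Complex IV takes 3 subunits from the mitochondrial genome. mt-Co3 was at 1857, 3534, 2351 and 4072 CPM (TMM-scaled, here and below) in QZ1-hi and at 1007, 2241, 1183 and 1489 CPM in QZ1-lo. QZ1-hi replicate 1 fell below QZ1-lo replicate 2, and all other QZ1-hi libraries lay above the QZ1-lo group. Its log2 fold change was 1.00 (SE 0.29, edgeR adjusted p = 0.0348). mt-Co2, the subunit that takes electrons from cytochrome c, was at 1710.3, 3880.0, 2555 and 4666 CPM in QZ1-hi and at 1078, 2459.5, 1199 and 1653 CPM in QZ1-lo. It overlapped in the same way and its log2 fold change of 1.00 (SE 0.33) missed the threshold (edgeR adjusted p = 0.0561). mt-Co1 was at 9964, 20816, 13963 and 25034 CPM against 6562, 14207, 7358 and 9794 CPM. Here QZ1-lo replicate 2 exceeded both QZ1-hi replicates 1 and 3 (log2 fold change 0.88, SE 0.31, edgeR adjusted p = 0.0782).

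ATP synthase takes mt-Atp6 and the short mt-Atp8, which holds the membrane part of the enzyme together with it. mt-Atp6 was at 3306, 7750.0, 5083 and 8275 CPM in QZ1-hi and at 2233, 4665, 2404 and 3092 CPM in QZ1-lo. QZ1-hi replicate 1 again lay within the QZ1-lo group and the others above it. The log2 fold change was 0.98 (SE 0.31, edgeR adjusted p = 0.0484). mt-Atp8 was at 546, 1095, 763 and 1399.8 CPM against 337, 753, 317 and 506 CPM, with a log2 fold change of 0.99 (SE 0.32) and an edgeR adjusted p of 0.0565. The overlap was that of mt-Atp6.

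Complex I, the entry point for electrons from NADH, takes 7 subunits. mt-Nd3 was at 270.3, 533, 334 and 605 CPM in QZ1-hi and at 158, 322, 193 and 242 CPM in QZ1-lo, with QZ1-hi replicate 1 below QZ1-lo replicate 2. Its log2 fold change was 0.93 (SE 0.28, edgeR adjusted p = 0.0385). mt-Nd1, which helps form the quinone-binding site, was at 3319.9, 7436, 4741 and 8679 CPM against 2113, 4679, 2313 and 3219.8 CPM (log2 fold change 0.97, SE 0.32, edgeR adjusted p = 0.0599). In both genes 3 QZ1-hi libraries lay above the QZ1-lo group. mt-Nd5, a proton-pumping subunit, was at 5204, 13704, 8464 and 17776 CPM against 4419, 9635, 4403 and 6831 CPM. It had 2 QZ1-hi libraries above the QZ1-lo group, and the highest adjusted p of the 15 genes (log2 fold change 0.84, SE 0.37, edgeR adjusted p = 0.157).

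The other complex I messages behaved like mt-Nd5, with QZ1-lo replicate 2 above QZ1-hi replicates 1 and 3. mt-Nd4 had a log2 fold change of 0.85, mt-Nd2 of 0.88, mt-Nd4l of 0.83 and mt-Nd6 of 0.86, with edgeR adjusted p-values of 0.135, 0.104, 0.122 and 0.141. mt-Cytb was at 6110.3, 15099, 10204 and 18243 CPM against 4604, 10357, 4985 and 7059.6 CPM (log2 fold change 0.88, SE 0.34, edgeR adjusted p = 0.109). Of the rRNAs, mt-Rnr1 had a log2 fold change of 0.93 (SE 0.32, edgeR adjusted p = 0.0684) and mt-Rnr2 of 0.93 (SE 0.34, edgeR adjusted p = 0.0846), each with 3 QZ1-hi libraries above the QZ1-lo group.

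The make-up of the messages was then compared within each library, where scaling has no part. mt-Co1 was the largest, at 23.8% ± 1.35 of message counts in QZ1-hi and 23.8% ± 0.61 in QZ1-lo (SD, n = 4), followed by mt-Cytb at 16.6% and 16.8% and mt-Nd5 at 14.8% and 15.7%. Summed by complex, complex I messages were 39.1% to 43.5% in QZ1-hi and 41.4% to 43.5% in QZ1-lo. The 3 complex IV messages were 31.0% to 35.1% and 31.0% to 32.7%, and the 2 ATP synthase messages were 8.87% to 9.98% and 8.61% to 9.28%. All of these ranges overlapped.

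The shares of 2 of the 13 messages did not overlap between the groups. mt-Co2 was 4.43%, 4.30%, 4.30% and 4.28% of message counts in QZ1-hi and 3.89%, 4.05%, 4.03% and 3.95% in QZ1-lo. Every QZ1-hi library lay above every QZ1-lo library, and the means of 4.33% ± 0.07 and 3.98% ± 0.07 (SD, n = 4) differed by 8.63% of the QZ1-lo value. mt-Nd1 was 8.60%, 8.23%, 7.98% and 7.96% in QZ1-hi and 7.63%, 7.71%, 7.77% and 7.71% in QZ1-lo, again without overlap (8.19% ± 0.30 against 7.70% ± 0.06, SD, n = 4). Both gave an exact permutation p of 0.0286, the smallest that 4 against 4 libraries allow, and an adjusted p of 0.186 over the 13 messages. No message passed after adjustment. The number of messages without overlap was 5 without QZ1-hi replicate 4, 4 without QZ1-lo replicate 3, and 2 or 3 without any other library. With fewer libraries, groups also separate more easily by chance.

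The other 11 messages overlapped. Among those with a higher mean share in QZ1-hi were mt-Atp8 (1.30% against 1.18%) and mt-Co3 (4.10% against 3.72%). Among those with a lower one was mt-Nd4l (1.07% against 1.14%, exact permutation p = 0.0571). Of all messages, mt-Co2 and mt-Nd1 included, 7 had a higher mean share in QZ1-hi and 6 a lower one. QZ1-hi replicate 1 set many of the extremes. It had the highest share of mt-Co1 (25.8%), mt-Co3 (4.81%) and mt-Nd3 (0.700%) of all 8 libraries, and the lowest of mt-Nd4 (7.18%), mt-Nd5 (13.5%), mt-Nd6 (3.02%) and mt-Cytb (15.8%). The same library had the highest rRNA count per message count and the lowest mitochondrial share of the QZ1-hi group.

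**Figure D4:**
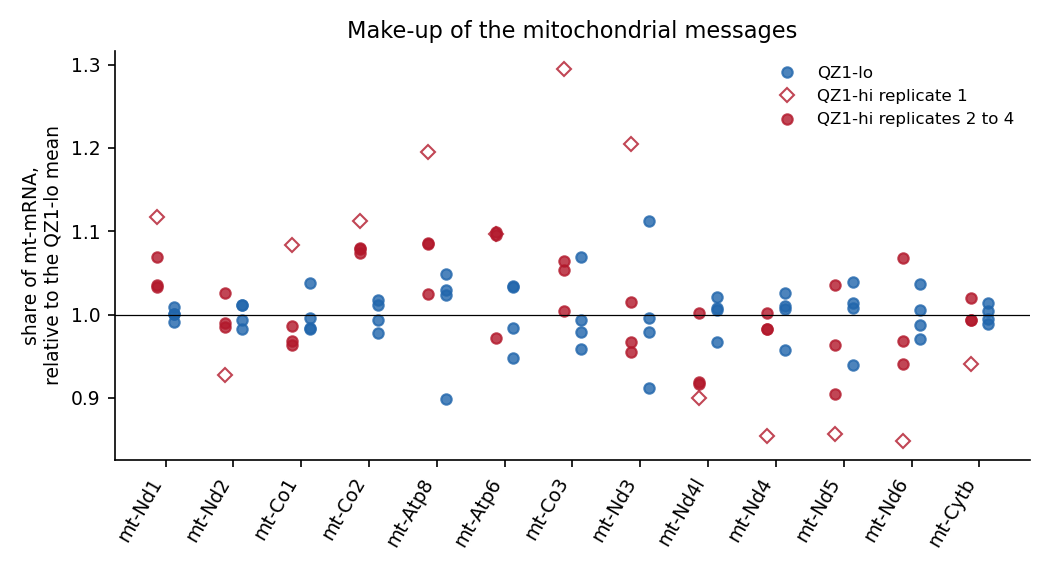
Share of each message in all message counts, divided by the mean of the 4 QZ1-lo libraries (y axis; the line is 1). Points are single libraries, blue for QZ1-lo, filled red for QZ1-hi replicates 2 to 4 and open diamonds for QZ1-hi replicate 1. For mt-Nd1 and mt-Co2 all red points lie above all blue ones, and QZ1-hi replicate 1 lies apart from the other libraries for mt-Co3, mt-Nd4 and mt-Nd6.

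Mitochondrial sequence also lies copied in the nuclear genome, which bears on what these counts hold. Every stretch of 50 bases of each gene was searched for in all other GENCODE M21 transcripts, and 10 of the 15 genes shared at least 1. The shared part was 100% of the stretches of mt-Co2, 99.9% of mt-Co3, 99.5% of mt-Atp6, 98.8% of mt-Nd4l and 98.0% of mt-Nd3. It was 62.2% for mt-Nd4 and 51.1% for mt-Co1, and at most 8.19% for the rest. A block of 7 pseudogenes at chr1:24611535-24616197 (GRCm38) matched all 7 of the genes that were over 50% shared, and none of the 7 was among the rows of the table. The 3 genes that were called were all nearly identical to a copy. The log2 fold changes of the 7 genes over 50% shared were 0.83 to 1.00 (median 0.93) and those of the other 8 genes were 0.84 to 0.99 (median 0.90). Whether reads that match a copy were kept is not given in the sources used here, so the counts of the 7 genes are uncertain.

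A nuclear row with mitochondrial sequence was found in the table. Gm20594 on chr6:79817916-79818364 is annotated as protein-coding in GENCODE M21 and its transcript is 86.9% identical to mt-Rnr2. The longest run of bases that both share is 65. It was chosen after its values were seen. The stretches below are shown because most of their bases are the same, and capitals mark the base that differs.
Gm20594, transcript bases 353 to 412: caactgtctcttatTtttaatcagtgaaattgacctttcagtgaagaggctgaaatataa
mt-Rnr2, transcript bases 994 to 1053: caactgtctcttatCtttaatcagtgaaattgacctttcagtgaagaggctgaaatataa

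Gm20594 held 15288 to 38023 counts per library. Set against mt-Rnr2 it had 3.40, 3.72, 3.12 and 3.61 counts per 1000 mt-Rnr2 counts in QZ1-hi and 3.42, 3.34, 3.17 and 3.11 in QZ1-lo. The groups overlapped. Its log2 fold change was 1.04 (SE 0.33, edgeR adjusted p = 0.0493), close to that of mt-Rnr2.

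No nuclear gene for complexes I to V passed the edgeR test. Complex II is among them although none of the mitochondrial messages belongs to it. Of 82 nuclear subunits of complexes I to V, 80 were tested and 0 were called in either direction by edgeR, with a median log2 fold change of 0.07 and a range of -0.58 to 1.33. At an unadjusted p under 0.05 there were 3 of the 80, DESeq2 called 1 higher, and edgeR with library size as the only scaling called 3 lower. Among all genes tested, edgeR called 9.88% higher and 8.21% lower, and 28.9% had an unadjusted p under 0.05. Of 15583 genes, DESeq2 called 1812 higher, and edgeR with library size as the only scaling called 2509 lower. Per complex the medians were 0.09 for complex I, 0.16 for complex II, 0.07 for complex III, -0.01 for complex IV and 0.02 for complex V. Only Ndufa6 (log2 fold change -0.40, edgeR adjusted p = 0.105) and Ndufa3 (0.41, edgeR adjusted p = 0.118), both of complex I, had groups without overlap. These were named after their values were seen, as was Cox4i2, an isoform of complex IV subunit 4, at 1.33 (edgeR adjusted p = 0.0802).

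The balance of mitochondrial messages to nuclear subunits was taken within each library. There were 15.5, 38.7, 27.7 and 43.9 mitochondrial message counts per count of the nuclear subunits in QZ1-hi and 12.0, 26.6, 12.9 and 17.8 in QZ1-lo. QZ1-hi replicate 1 lay below QZ1-lo replicates 2 and 4, and the other QZ1-hi libraries lay above the QZ1-lo group.

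Genes that build and run mitochondria showed few calls, beside 9.88% of all genes called higher and 8.21% lower by edgeR. An unadjusted p under 0.05 was found for 28.9% of all genes, and DESeq2 called 1606 of 15583 genes lower. Of 77 mitoribosomal protein genes tested 0 were called by edgeR (median -0.03), with 7 at an unadjusted p under 0.05 and 1 called lower by DESeq2. Of 15 tested genes of mitochondrial DNA transcription and replication 0 were called by edgeR or DESeq2, and 1 had an unadjusted p under 0.05. Polrmt, the mitochondrial RNA polymerase, was at 11.4 ± 2.63 CPM in QZ1-hi and 8.98 ± 1.40 CPM in QZ1-lo (SD, n = 4; log2 fold change 0.35, edgeR adjusted p = 0.326). Tfam, which packages the mitochondrial DNA and opens its promoters, had a log2 fold change of 0.12 (edgeR adjusted p = 0.772). Tfb2m, the second initiation factor, was at -0.25, the DNA polymerase Polg at -0.02 and the helicase Twnk at -0.03, none of them called.

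Of 41 tested genes of mitochondrial RNA processing, stability and decay, 2 rose and 0 fell by edgeR or DESeq2, and 3 had an unadjusted p under 0.05. The shares over all genes were 9.88% higher and 8.21% lower by edgeR, and 28.9% at an unadjusted p under 0.05. Rbfa, a factor that matures the small ribosomal subunit, was at 5.84 to 8.93 CPM in QZ1-hi and 2.78 to 4.05 CPM in QZ1-lo, without overlap (log2 fold change 1.01, SE 0.25, edgeR adjusted p = 0.0157). Mettl15, a methyltransferase of the 12S rRNA, was at 2.31 to 4.54 CPM and 0.654 to 1.49 CPM, also without overlap (log2 fold change 1.43, SE 0.44, edgeR adjusted p = 0.0441). Neither was called with library size as the only scaling. Lrpprc, which keeps mitochondrial messages stable, was at 24.6 ± 3.45 and 26.1 ± 3.84 CPM (SD, n = 4; log2 fold change -0.09). Its partner Slirp was at 2.51 ± 1.06 and 1.63 ± 0.51 CPM (SD, n = 4; log2 fold change 0.62, edgeR adjusted p = 0.410), and neither was called.

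Of 19 mitochondrial aminoacyl-tRNA synthetases 1 fell, Vars2 for valine (log2 fold change -0.71, edgeR adjusted p = 0.0434), whose groups overlapped and which was named after its values were seen. By edgeR 8.21% of all genes were called lower and 9.88% higher, with 28.9% at an unadjusted p under 0.05. DESeq2 called 1606 of 15583 genes lower. Lars2, for leucine, was at 1384 ± 169 CPM and 1331 ± 79.4 CPM (SD, n = 4) and was not called. All 19 synthetases summed to 1428 to 1769 CPM in QZ1-hi and 1465 to 1664 CPM in QZ1-lo, so Lars2 held most of the list's level. Why it stood so far above the others was not tested. Of 8 regulators of mitochondrial biogenesis 0 were called by edgeR or DESeq2, and 0 had an unadjusted p under 0.05. Ppargc1a, a coactivator that drives it, had a log2 fold change of -0.39, Nrf1 of -0.16 and Esrra of -0.39. Of 17 general mitochondrial proteins 0 were called by edgeR, with a median of 0.01, 1 had an unadjusted p under 0.05 and DESeq2 called 1 lower.

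Small RNAs of nuclear origin were read as a comparison. Rmrp, the RNA of RNase MRP, rose from 212 ± 7.55 to 360.1 ± 51.6 CPM (SD, n = 4; log2 fold change 0.76, edgeR adjusted p = 0.00167). Rpph1, the RNA of nuclear RNase P, rose from 1251 ± 252 to 1987 ± 189 CPM (SD, n = 4; log2 fold change 0.67, edgeR adjusted p = 0.0123). Neither overlapped between groups, and neither was called with library size as the only scaling. Of the nuclear-retained RNAs, Neat1 fell (log2 fold change -0.95, edgeR adjusted p = 0.0437) with overlapping groups, and Malat1 was at -0.62 (edgeR adjusted p = 0.0582). Both were named after their values were seen. Myh6, a marker of the mitochondria-rich heart muscle, was at 4.12 ± 1.64 CPM in QZ1-hi and 5.28 ± 1.62 CPM in QZ1-lo (SD, n = 4). Of 7 cardiomyocyte markers, the 5 that passed the filter on low counts summed to at most 30.4 CPM in any library.

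**Figure D5:**
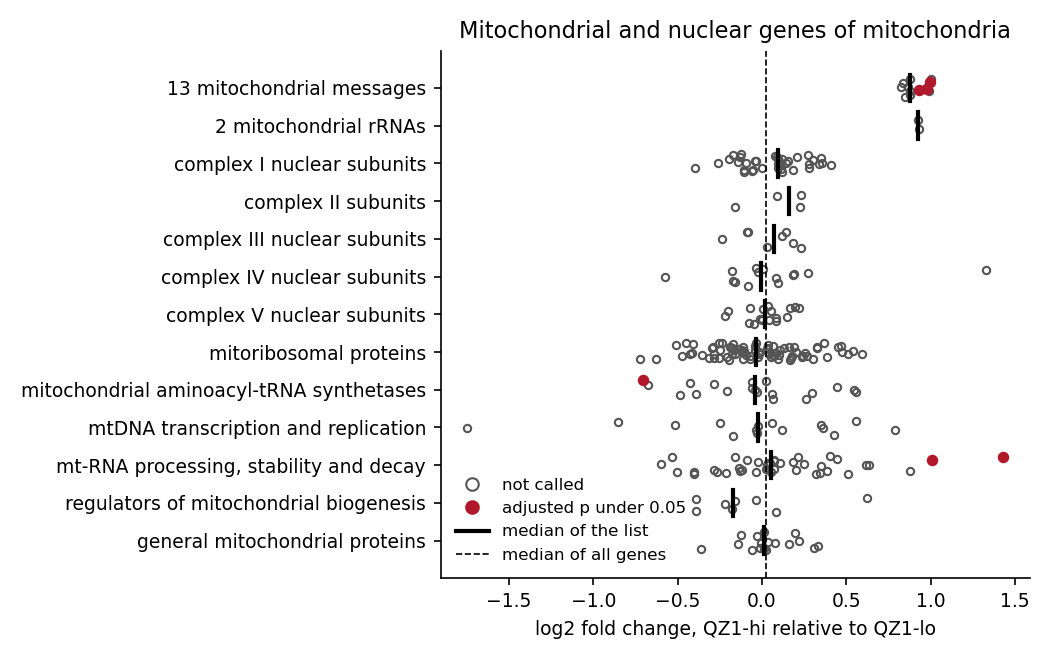
Each point is 1 gene and the x axis is its edgeR log2 fold change (TMM) of QZ1-hi relative to QZ1-lo; rows are the mitochondrial genes and the lists of nuclear genes, filled points have an adjusted p under 0.05, thick bars are list medians and the dashed line is the median of all genes. The mitochondrial genes lie in a narrow band from 0.83 to 1.00, and the medians of the nuclear lists drawn here, which leave out the nuclear-retained and small nuclear RNAs, lie between -0.17 and 0.16.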

How the data were processed

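Total RNA libraries were made with a stranded kit from Clontech (SMARTer). The deposited values are raw counts per Entrez gene, which the authors obtained from aligned reads with the Rsubread package. The submitters' notes name build mm10 and DESeq2. The aligner, the gene annotation and the settings for strand and for reads that match several places are not given in the sources used here.

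Counts were analysed as deposited. Of 27179 rows, 25275 were matched to a symbol through RefSeq (GRCm38.p6), and the other 1904 rows took 3.43% to 7.23% of counts. Genes were placed on the mitochondrial chromosome by RefSeq. Names are written mt-Nd1 and so on where RefSeq has ND1. Totals were 18380918 to 26847938 per library, and a count of 3 was 0.0894 to 0.179 CPM after scaling.

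The populations were compared with edgeR 4.0.16 in R 4.3.3 (glmQLFit and glmQLFTest, TMM, filterByExpr with a minimum count of 10, Benjamini-Hochberg over 15583 genes, threshold 0.05), on all 8 libraries without covariates. The fit was tested on simulated data. CPM values are divided by TMM-scaled library sizes. Class shares and ratios were compared with two-sided exact permutation tests over 70 assignments of 4 and 4 libraries. DESeq2 1.42.0, limma 3.58.1, other scalings and filters, and leaving out each library were the alternatives. Libraries are biological replicates by the series' design text. Sequences were read from GENCODE M21.

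All mitochondrial rRNA and protein-coding genes were described. Of nuclear lists, called genes without overlap (at most 3 per list and direction) and a fixed set of regulators were named, with exceptions marked where they stand. Members and lists were chosen with earlier results of these data known. Of 255 genes on the nuclear and marker lists, 8 had no matching row by symbol.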

Additional observations from a re-analysis of the deposited data

Results flagged for a closer look

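Within each group of 4 libraries, the highest or lowest value was checked for standing far from the other 3, by Dixon's ratio of gap to range above its 95% critical value. This was done for 130 groups of values and marked 8. Chance alone marks about 1 in 20 groups.

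Of these, 5 were mitochondrial values and 3 were nuclear genes. In QZ1-hi replicate 1, mt-Co2 was 4.43% of message counts beside 4.28% to 4.30% in the other QZ1-hi libraries, mt-Nd4 was 7.18% beside 8.25% to 8.41%, and the log2 ratio of rRNA to message counts was 3.22 beside 3.02 to 3.05. In QZ1-hi replicate 4, mt-Atp6 was 7.58% of message counts beside 8.55% to 8.58%. In QZ1-lo replicate 3, mt-Atp8 was 1.06% beside 1.21% to 1.24% in the other QZ1-lo libraries.

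Among nuclear genes, Rbfa was at 2.78 CPM in QZ1-lo replicate 4 beside 3.84 to 4.05 CPM in the others of that group. Ppargc1a was at 10.6 CPM in QZ1-lo replicate 3 beside 6.38 to 7.03 CPM. Pecam1, the endothelial CD31, was at 68.8 CPM in QZ1-lo replicate 3 beside 12.2 to 21.7 CPM.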

How the results depend on the processing

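The direction of all 15 mitochondrial genes was the same under all 16 alternatives, 240 combinations of gene and alternative, with log2 fold changes from 0.30 to 1.30. These combinations are not independent. The genes are cut from shared precursors, and every alternative used libraries from the same 8. The call was the same in 183, gained in 33 and lost in 24. Against 3 genes called higher in QZ1-hi by edgeR, DESeq2 called 12, edgeR without a filter 6, and library size only, robust shrinkage and a threshold of 0.01 gave 0 each. With robust shrinkage 11 of the 15 genes had an unadjusted p under 0.05. Leaving out 1 library gave 0 to 15 calls among the 15. The cause of these changes in calls was not tested. Over all genes, edgeR called 1555 of 21271 higher without a filter and 1509 of 15583 higher with robust shrinkage. Of the nuclear genes of mitochondria, 2 were called higher, 0 with library size only and 1 to 3 with a library left out. The 1 called lower became 3 with DESeq2, 10 with library size only and 0 to 2 with a library left out. In the main fit 9.88% of all genes were called higher and 8.21% lower. Of 15583 genes, DESeq2 called 1812 higher and 1606 lower, and library size only called 883 higher and 2509 lower. With a library left out, 1136 to 1506 of all genes were called higher and 938 to 1201 lower. The number of messages whose share did not overlap was 2, and 2 to 5 with a library left out. The difference in the log2 ratio of mt-Rnr2 to mt-Rnr1 was -0.0096 and turned to 0.0189 without QZ1-hi replicate 1 (range with a library left out -0.0271 to 0.0189). With a library left out the exact test can give no p below 0.0571, so the class shares could not pass in those runs. The differences in both class shares kept their direction under every alternative tried. The alternatives for a tRNA share were not run, since no tRNA row was analysed. No paired analysis was possible because the labels give no replicate number that links a QZ1-hi to a QZ1-lo library. The study's gating sorts the cells of a lung suspension into both populations, so libraries of the 2 groups may share mice. The tests treat the 8 libraries as independent, and any sharing of mice between the groups was not tested. Library numbers run from 4591 to 4598 and alternate, starting with QZ1-hi. Taken in this order, each QZ1-hi library had a higher mitochondrial share than the next QZ1-lo library. The shares were 43.7% against 34.0%, 62.8% against 53.2%, 52.0% against 37.0% and 65.6% against 43.3%. The rRNA and message shares had the same direction. Whether neighbouring libraries came from 1 mouse is not given in the sources used here, and this pattern was not tested. Depth limited none of the mitochondrial values, and 4 libraries per group limited the tests.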
